A study of Mus musculus with 4 samples.

Results

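Molecular chaperones and protein folding enzymes were examined in the forebrain of young mice that carry an activated Smoothened transgene in Pdgfra-expressing cells. The genes were taken by name: the HSP70, HSP90, HSP110 and small heat shock proteins, J-domain proteins, chaperonins and prefoldin, the HSP90 co-chaperones Stip1 and Ahsa, BAG proteins, tubulin folding cofactors, FKBP and cyclophilin prolyl isomerases, and protein disulfide isomerases with the lectin chaperones. Fkbp5 and pseudogene names were left out, and a mean level of at least 1 over the 4 samples was required. That gave 31 genes of 5282 in the authors' deposited table. No gene of these names was lost to the minimum, since the lowest, Fkbp11, had a mean level of 1.97.

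RNA came from pooled corpus callosum and cortex at postnatal day 15. The 2 SmoM2 samples had the genotype Pdgfra-creER;SmoM2, and the 2 others were wild type (WT). The controls were littermates, and tamoxifen was injected on postnatal days 5 to 7 in either group. The SmoM2 allele encodes a Smoothened that signals without hedgehog ligand. Its recombination depends on Pdgfra, which oligodendrocyte precursors and also fibroblasts express. Smo itself, the gene that the transgene carries, rose, at 10.73 and 10.96 in SmoM2, against 7.12 and 5.75 in WT. The labels do not say whether a sample was 1 animal or a pool, so p-values measure only the spread between these samples, which may be technical. Neuronal and myelin markers were present in every sample: neuronal Snap25 lay between 1277 and 1794, and myelin gene Mbp between 1956 and 4001. Snap25 fell, at 1285 and 1277 in SmoM2, against 1485 and 1794 in WT. Of 9 neuronal markers 4 had a row: Snap25 and Syt1 fell, and Tubb3 and Slc32a1 rose. The levels of Snap25 and Mbp do not show how much of each tissue a sample held. All 12 myelin markers fell, with levels summing to 3058 and 3449 in SmoM2, against 6400 and 6014 in WT.

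A value called a level below is the authors' expression level per gene and sample. No source used here names its unit; the values look scaled for library size and gene length. Without read counts, depth is unknown. Per sample, the levels of the table sum to between 469062 and 512833. The authors listed genes by an unadjusted p up to 0.05, so every member was already selected for a difference between these same samples. "Called", "rose" and "fell" are used where the adjusted p in the authors' deposited table did not exceed 0.05. An exact permutation test of 2 samples against 2 cannot go below p = 0.333, and none is given.

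Chaperones bind unfolded proteins and keep them from aggregating. HSP70 works in cycles of ATP binding and release: J-domain proteins bring it clients and start ATP hydrolysis, and exchange factors such as BAG and HSP110 proteins reset it. HSP90 and its co-chaperones finish kinases and steroid receptors, prolyl isomerases turn the peptide bonds before proline, and in the endoplasmic reticulum (ER) disulfide isomerases pair cysteines. Myelin-forming cells and growing neurons both pass large amounts of protein through the ER.

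Of 132 protein-coding genes with such names in the GENCODE M21 annotation, 31 had a row, 23.5%, against 4807 of 21951, 21.9%, of all protein-coding genes. None of 16 chaperonin and prefoldin genes and none of 8 small heat shock protein genes had one. Those genes were not analysed here. 12 members were higher and 19 lower in SmoM2 by the authors' fold change, and 61.3% lower compares with 47.5% of the 4845 listed genes that met the same minimum, of which 52.5% were higher. 7 of the 31 were called, 22.6%, against 38.9% of those 4845 genes. 3 members rose, Fkbp10, Tbcc and Bag6, where 22.0% of the 4845 genes rose, and 4 fell, Dnajc21, Bag4, Dnaja2 and Dnajb14, where 16.9% fell. The samples of the groups did not overlap for 23 members, 74.2%, against 85.0% of the 4845 genes. Without overlap, SmoM2 lay above WT in 12 of the 31 members, 38.7%, against 49.5% of the 4845 genes, and below it in 11 of the 31, 35.5%, against 35.5% of the 4845 genes. In the authors' deposited table the members' median log2 fold change was -0.22, and that of the 4845 genes was 0.23. No member lay between -0.18 and 0.22, so the members' median mostly follows which direction holds more genes. It does not measure a common shift, and medians of other sets of listed genes carry the same limit. Shifts of single members were small, with authors' log2 fold changes between -0.73 and 0.77 apart from Fkbp11 at -1.41.

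**Figure D1:**
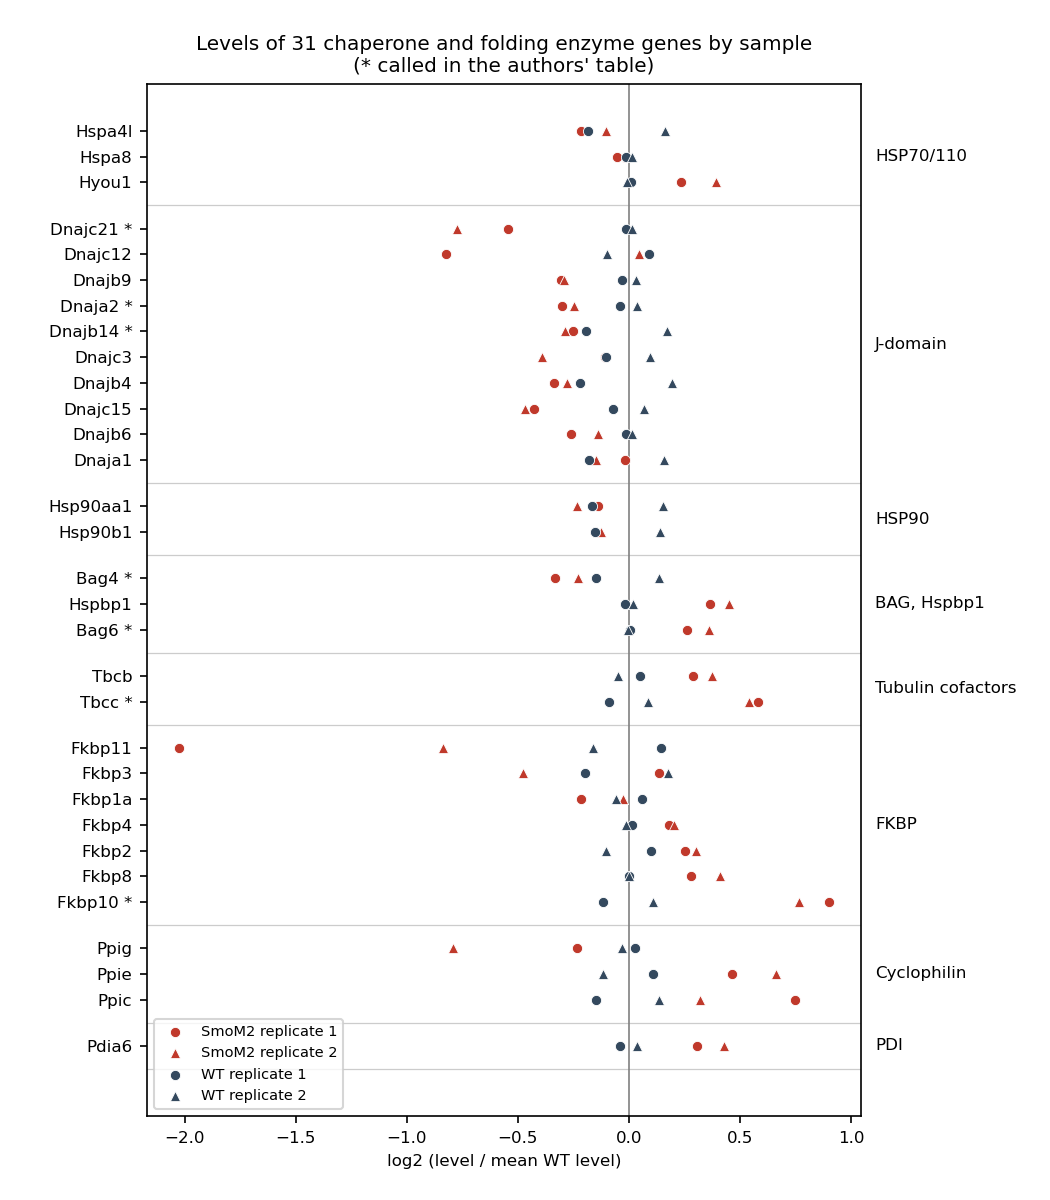
Log2 of each sample's level over the mean WT level (x axis) for the 31 genes (rows, by family), with SmoM2 samples in red and WT samples in dark blue; circles are replicate 1, triangles replicate 2, and a star marks a called gene. All 10 J-domain genes lean to the left by their group means, while the tubulin cofactors lie to the right in both SmoM2 samples.

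WT replicate 2 stood apart in the plot of all members by sample. Of the 19 lower members, 15 had their highest level in WT replicate 2, and 4 in WT replicate 1. Computed by limma on log2(level + 1), the median log2 difference of the members was -0.13, and it became 0.014 without WT replicate 2. Without that library 15 members were lower and 16 higher. In the same limma fit no member reached an adjusted p of 0.05, and 6 of the 4845 genes did. An unadjusted p below 0.05 was found for 16 of 31 members, 51.6%, and for 2687 of the 4845 genes, 55.5%. All these genes had been listed by p in the same samples, so limma's p-values and standard errors (SE) may be too small. Leaving out 1 library moved the difference by over 1.5 times or turned it for 16 of the 31 members, 2 of them called.

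The base composition of the transcripts moved with the direction of change in the whole table, and it touches every result below. GC content, the share of G and C bases, was taken from the longest protein-coding transcript of each gene. Among 4800 listed genes with a value, 2.92% of the 480 lowest in GC were higher in SmoM2, against 98.1% of the 480 highest in GC. Spearman's rho between the authors' log2 fold change and GC was 0.64 across those genes, and 0.66 across the 31 members, which share the same 4 libraries. The 12 members that were higher had a median GC of 56.7%, and the 19 that were lower had 43.8%. By sample, the median deviation of log2 level in the GC-richest bin minus that in the GC-poorest bin was 0.34 and 0.47 in the SmoM2 samples, against -0.32 and -0.48 in the WT samples. The part of base composition in the results below was not tested. As a description, differences are also given relative to the median limma difference of the gene's own GC bin, 1 of 10. On that scale 15 of the 31 members changed sign, 7 of the 12 that were higher and 8 of the 19 that were lower, leaving 13 higher and 18 lower. Those medians rest on selected genes, since the unselected ones are not analysed here.

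To show how far apart the transcripts are, 60 bases of coding sequence follow for a pair of members that rose and a pair that fell. Each stretch is the one whose GC is nearest to that of the whole transcript, from GENCODE M21 (GRCm38), 5′ to 3′, with G and C in capitals. The transcript GC is 57.4% for Fkbp10, 61.3% for Tbcc, 46.7% for Dnajc21 and 42.6% for Dnaja2.
Fkbp10: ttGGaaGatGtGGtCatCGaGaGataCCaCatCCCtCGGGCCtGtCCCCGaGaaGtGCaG
Tbcc: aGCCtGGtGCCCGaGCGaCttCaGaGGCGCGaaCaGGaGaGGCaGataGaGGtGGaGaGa
Dnajc21: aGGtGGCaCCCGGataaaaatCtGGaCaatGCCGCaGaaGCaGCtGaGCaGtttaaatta
Dnaja2: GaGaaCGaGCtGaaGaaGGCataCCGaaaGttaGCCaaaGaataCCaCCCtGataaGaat
G and C make up 34, 37, 28 and 26 of the 60 bases, in the order printed.

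**Figure D2:**
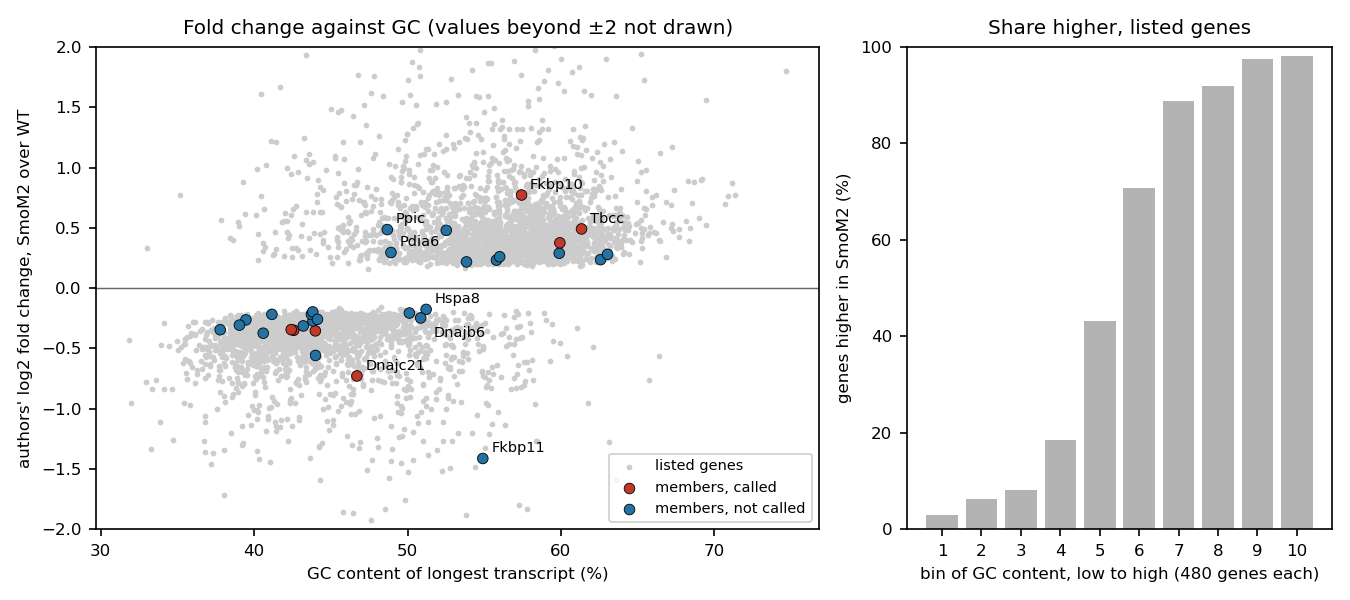
Left, the authors' log2 fold change of SmoM2 over WT (y axis) against transcript GC (x axis, percent) for listed genes (grey) and the 31 members (red called, blue not called); right, the percentage of listed genes higher in SmoM2 for each GC bin (480 genes each, axis from 0). The share higher climbs from 2.92% in the lowest bin to 98.1% in the highest, and 26 of the 31 members go with the majority of their bin.

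Of the 31 members, 26 went the way of most genes in their GC bin, 83.9%, against 86.8% of the 4800 genes. The 5 that went against it were Ppic, Pdia6, Hspa8, Dnajb6 and Fkbp11. Ppic and Pdia6 were higher in a bin where 56.9% of genes were lower, Hspa8 and Dnajb6 were lower where 29.2% were lower, and Fkbp11 was lower where 11.2% were. Relative to their bins the log2 differences were 0.65 for Ppic, 0.50 for Pdia6, -0.40 for Hspa8, -0.56 for Dnajb6 and -1.27 for Fkbp11. Except for Fkbp11, these bins hold many genes of either direction, so their medians follow the majority and are no center. The bin median was -0.14 for Ppic and Pdia6, and 0.36 for Hspa8 and Dnajb6 (limma). The plain difference of Hspa8 was -0.03, so its value here comes mostly from the bin median. None of these 5 was called.

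Fkbp10 (ENSMUSG00000001555, chromosome 11, 100415697 to 100424824, GRCm38) gave the largest rise among the members. It encodes an ER prolyl isomerase that helps fold collagen. Its level was 15.3 and 13.95 in SmoM2, against 7.56 and 8.86 in WT. Both SmoM2 samples lay above both WT samples, and the means were 14.6 ± 0.955 for SmoM2 and 8.21 ± 0.919 for WT (SD, n = 2 each). The log2 difference was 0.76 ± 0.15 (SE, limma), and the adjusted p in the authors' deposited table was 0.000339. With a library left out the difference stayed between 0.66 and 0.87, and relative to its GC bin it was 0.34.

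Tbcc (ENSMUSG00000036430, chromosome 17, 46890684 to 46891847) also rose. It encodes tubulin folding cofactor C, which helps release the assembled tubulin dimer. It read 44.27 and 43.06 in SmoM2, against 27.84 and 31.37 in WT, again without overlap. The log2 difference was 0.55 ± 0.11 (SE, limma; adjusted p = 0.0326, authors' deposited table), and relative to its GC bin it was 0.04. Tbcb, the cofactor that binds alpha-tubulin, had 148.31 and 157.39 in SmoM2, against 125.51 and 117.31 in WT. It was higher in both SmoM2 samples and was not called (adjusted p = 0.256, authors' deposited table). These 2 were the tubulin cofactors with a row, out of 5 annotated, and relative to its GC bin Tbcb turned to -0.08, with 0.33 on the plain scale. Their client genes, chosen here after their values were seen, moved in the same direction: all 7 alpha- and beta-tubulin genes with a row rose, with authors' log2 fold changes from 0.29 to 1.20. Of the 4845 genes 22.0% rose, and in the GC bins of these tubulins 70.8% to 91.9% of listed genes were higher. Tubb2b, a beta-tubulin of young neurons, had a mean of 737 ± 6.57 in SmoM2 samples, against 314.4 ± 37.8 in WT samples (SD, n = 2 each). Relative to their GC bins, the log2 difference was 0.87 for Tubb2b and -0.04 for Tuba1b.

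Among the factors that act on HSP70, Bag6 rose and Bag4 fell. Bag6 (ENSMUSG00000024392, chromosome 17, 35135178 to 35147322), which guides tail-anchored and mislocalised membrane proteins, read 125.58 and 134.76 in SmoM2, against 105.34 and 104.58 in WT. Its log2 difference was 0.31 ± 0.09 (SE, limma; adjusted p = 0.0103, authors' deposited table), and relative to its GC bin it was -0.14, a change of sign. Bag4 (ENSMUSG00000037316, chromosome 8, 25764538 to 25785287), known as a silencer of death domains, read 16.6 and 17.83 in SmoM2, against 18.89 and 22.94 in WT. WT replicate 2 stood highest for Bag4. Its log2 difference was -0.26 ± 0.14 (SE, limma; adjusted p = 0.0417, authors' deposited table), became -0.13 without WT replicate 2 and -0.40 without WT replicate 1, and was -0.04 relative to its GC bin. Hspbp1, an exchange factor of HSP70, was not called at 178.02 and 189.29 in SmoM2, against 136.66 and 140.16 in WT. Its log2 difference was 0.40, and -0.04 relative to its GC bin. Bag1, Bag2, Bag3 and Bag5 had no row.

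**Figure D3:**
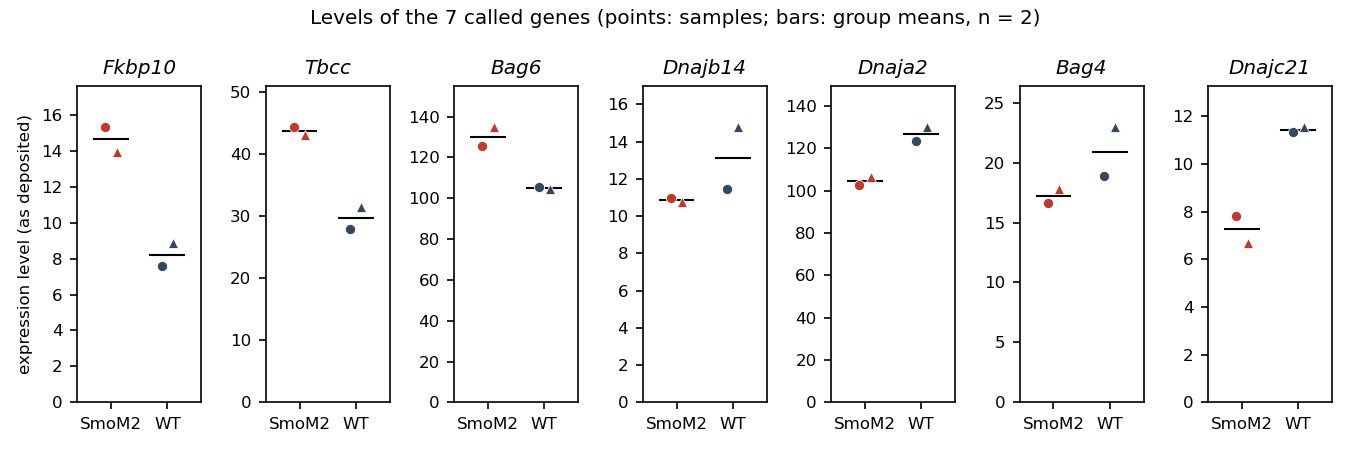
Levels (y axis, the authors' expression level, each panel from 0) of the 7 called genes in SmoM2 (left, red) and WT (right, dark blue); points are samples, circles replicate 1 and triangles replicate 2, and bars are means of 2. No panel shows an overlap between groups, and for Dnajb14 and Bag4 the WT samples stand farthest apart relative to their mean.

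J-domain genes formed the largest family, with 10 of 45 in the table, and all 10 were lower in SmoM2 by the authors' fold change. Their median log2 fold change was -0.33, within -0.73 to -0.22. Dnajc21, Dnaja2 and Dnajb14 fell, and the other 7 were not called. Their transcripts lie low in GC, from 39.0% to 50.9%, and 9 of the 10 went with the majority of their GC bin. Relative to that bin 7 of the 10 were lower.

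Dnajc21 (ENSMUSG00000044224, chromosome 15, 10446756 to 10470516), a factor in the maturation of the large ribosomal subunit, fell most. It read 7.83 and 6.69 in SmoM2, against 11.32 and 11.53 in WT, with no overlap and little spread in WT. The log2 difference was -0.59 ± 0.15 (SE, limma), the adjusted p in the authors' deposited table was 0.00830, and relative to its GC bin the difference was -0.38. Dnaja2 (ENSMUSG00000031701, chromosome 8, 85537633 to 85555344), a main cytosolic partner of constitutive HSP70, read 102.84 and 106.48 in SmoM2, against 123.26 and 129.94 in WT. Its log2 difference was -0.27 ± 0.09 (SE, limma; adjusted p = 0.0220, authors' deposited table) and -0.02 relative to its GC bin. Dnajb14 (ENSMUSG00000074212, chromosome 3, 137867675 to 137916557), a J-protein of the ER membrane, read 11 and 10.75 in SmoM2, against 11.47 and 14.77 in WT. For Dnajb14 the gap between the WT samples exceeded the gap between groups. The difference of -0.24 ± 0.16 (SE, limma; adjusted p = 0.0446, authors' deposited table) became -0.07 without WT replicate 2, -0.41 without WT replicate 1, and 0.0095 relative to its GC bin.

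The J-domain genes that were not called differ in cell compartment. Dnaja1, a cytosolic HSP70 partner and the most abundant of them, read 355.74 and 324.96 in SmoM2, against 317.85 and 401.53 in WT. The groups of Dnaja1 overlapped, and its log2 difference of -0.07 became 0.10 without WT replicate 2 and was 0.18 relative to its GC bin. Dnajb6, which keeps polyglutamine proteins from aggregating, read 216.68 and 235.75 in SmoM2, against 257.47 and 262.45 in WT. It was the J-domain gene that went against its GC bin (adjusted p = 0.221, authors' deposited table). Dnajb9 and Dnajc3 are ER proteins of the unfolded protein response. Dnajb9 read 23.87 and 24.03 in SmoM2, against 28.82 and 30.12 in WT, just outside the threshold (adjusted p = 0.0519, authors' deposited table). Dnajc3 read 15.33 and 12.56 in SmoM2, against 15.37 and 17.63 in WT, so that 1 SmoM2 sample nearly met a WT sample. Dnajc15, a mitochondrial import factor, and Dnajb4, another cytosolic partner, did not overlap. Dnajc12, which escorts aromatic amino acid hydroxylases, overlapped, and SmoM2 replicate 1 stood apart at 9 from SmoM2 replicate 2 at 16.47.

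No HSP70, HSP110 or HSP90 gene was called. Hspa8, the constitutive cytosolic HSP70, is the most abundant member and read 1693 and 1750 in SmoM2, against 1743 and 1778 in WT. Its groups overlapped, and the log2 difference was -0.03 ± 0.09 (SE, limma; adjusted p = 0.291, authors' deposited table). Hsp90aa1, the inducible cytosolic HSP90, read 587.21 and 550.04 in SmoM2, against 575.78 and 718.57 in WT, with WT replicate 2 alone above the rest. Its log2 difference of -0.18 became -0.02 without that library, and was 0.05 relative to its GC bin. WT replicate 2 was also alone above the rest for Hsp90b1, the ER HSP90, with 144.49 and 146.98 in SmoM2, against 144.27 and 176.66 in WT, and for Hspa4l, an HSP110. Hsp90b1 had a log2 difference of -0.13, which became 0.014 without WT replicate 2 and was 0.09 relative to its GC bin. Hyou1, the HSP110 of the ER, was higher without overlap, at 36.62 and 40.92 in SmoM2, against 31.37 and 30.93 in WT, and was not called (adjusted p = 0.510, authors' deposited table). Genes such as Hspa8, Hsp90aa1 and Fkbp1a have processed pseudogenes with near-identical sequence, so their levels are uncertain. Heat-inducible Hspa1a, Hspa1b, Hsph1 and Dnajb1, and the ER HSP70 gene Hspa5, had no row and were not analysed here.

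Prolyl isomerases split. Of 7 FKBP genes with a row, out of 13 annotated, 4 were higher and 3 lower, and Fkbp10 was the one called. Fkbp8, an anchor of BCL2 at the mitochondrial surface, read 403.52 and 442.65 in SmoM2, against 333.11 and 332.5 in WT (adjusted p = 0.0863, authors' deposited table), with a log2 difference of 0.34, and -0.16 relative to its GC bin. Fkbp4, an HSP90 co-chaperone of steroid receptors, and Fkbp2, of the ER, were also higher without overlap and not called, and relative to their GC bins they turned to -0.22 and -0.23. Fkbp11, an ER isomerase of secretory cells, was near the floor of the table at 0.69 and 1.57 in SmoM2, against 3.1 and 2.51 in WT. It had the most negative log2 fold change of the members and was not called (adjusted p = 0.349, authors' deposited table). Fkbp1a, the target of the drug FK506, and nuclear Fkbp3 overlapped between groups, and relative to their GC bins they turned to 0.02 and 0.06. Fkbp3 read 224.32 and 146.73 in SmoM2, so that its SmoM2 samples lay farther apart than the group means, against 178.15 and 230.75 in WT.

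Of 8 cyclophilin genes, 3 had a row and none was called. Ppie, a cyclophilin of the spliceosome, read 17.48 and 20.04 in SmoM2, against 13.65 and 11.69 in WT. Ppic, an ER cyclophilin, read 19.04 and 14.15 in SmoM2, against 10.21 and 12.46 in WT, and Ppig, a nuclear cyclophilin with an arginine-serine tail, read 12.11 and 8.23 in SmoM2, against 14.53 and 13.95 in WT. None of the 3 overlapped, with log2 differences of 0.53 for Ppie, 0.50 for Ppic and -0.47 for Ppig (limma). That of Ppic became 0.30 without SmoM2 replicate 1, and that of Ppig became -0.72 without SmoM2 replicate 1 and -0.22 without SmoM2 replicate 2. Pdia6 was the disulfide isomerase with a row, of 8 annotated genes of its class. It read 86.64 and 94.25 in SmoM2, against 68.3 and 72.02 in WT, and differed by 0.36 ± 0.10 on the log2 scale (SE, limma; adjusted p = 0.135, authors' deposited table).

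Among members known as targets of the unfolded protein response, Pdia6 and Hyou1 were higher and Dnajb9, Dnajc3 and Hsp90b1 lower by the authors' fold change, and none was called. Relative to their GC bins, the log2 differences were 0.50 for Pdia6, -0.04 for Dnajb9 and -0.007 for Dnajc3. Hyou1, at -0.06, and Hsp90b1, at 0.09, changed sign on that scale. The GC bins of Pdia6 and Hyou1 hold many genes of either direction, which limits these 2 values. RefSeq promoters (build GRCm38.p6), which were found for 23 of the 31 members, were searched on both strands for the ER stress response element (CCAAT, 9 bases of any kind, CCACG) and for the heat shock element (TTC, GAA and TTC, each pair 2 bases apart), in the 250 bases before the start. Members were counted as genes with a match in any of their promoters, and the background as promoters, so the units differ. The ER element was in 0.113% of 32817 promoters and in 3 members: Pdia6, higher in both SmoM2 samples, and Hsp90b1 and Dnajc3, lower by the authors' fold change, none of them called. The heat shock element was in 0.466% of promoters and in 1 member, Dnajb6, also lower and not called. Shorter forms were searched the same way: TTCNNGAA was in 7.16% of promoters and in Dnajb4 and Dnajb6, GAANNTTC was in 6.69% and in Dnaja1, Dnajb6 and Fkbp4, and the cAMP response element TGACGTCA was in 1.55% and in Tbcc. The short forms overlap the longer heat shock element in Dnajb6. The first 3 promoters below are shown because members of opposite direction by the authors' fold change share the ER element. The last is shown because it holds the heat shock element. Another Dnajb6 promoter, which overlaps it and holds the same match, is not printed. Matches are in capitals, and letters run 5′ to 3′ on the gene's strand.
Pdia6, chr12:17266339-17266588, plus strand: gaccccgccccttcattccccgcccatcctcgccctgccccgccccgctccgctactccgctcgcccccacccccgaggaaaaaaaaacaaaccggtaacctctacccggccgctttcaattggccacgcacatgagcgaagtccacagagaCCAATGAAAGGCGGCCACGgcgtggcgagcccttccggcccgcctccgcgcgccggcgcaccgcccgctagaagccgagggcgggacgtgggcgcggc
Hsp90b1, chr10:86705445-86705694, minus strand: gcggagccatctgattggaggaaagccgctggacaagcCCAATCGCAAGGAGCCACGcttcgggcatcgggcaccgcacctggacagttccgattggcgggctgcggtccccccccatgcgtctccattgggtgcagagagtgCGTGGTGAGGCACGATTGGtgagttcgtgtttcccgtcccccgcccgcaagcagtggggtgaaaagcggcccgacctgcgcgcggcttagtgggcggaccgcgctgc
Dnajc3, chr14:118937682-118937931, plus strand: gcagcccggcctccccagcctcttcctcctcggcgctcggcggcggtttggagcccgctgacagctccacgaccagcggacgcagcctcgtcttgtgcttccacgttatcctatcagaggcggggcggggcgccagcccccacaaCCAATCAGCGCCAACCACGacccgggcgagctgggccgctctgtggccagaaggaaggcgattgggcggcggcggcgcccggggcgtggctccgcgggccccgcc
Dnajb6, chr5:29735648-29735897, plus strand: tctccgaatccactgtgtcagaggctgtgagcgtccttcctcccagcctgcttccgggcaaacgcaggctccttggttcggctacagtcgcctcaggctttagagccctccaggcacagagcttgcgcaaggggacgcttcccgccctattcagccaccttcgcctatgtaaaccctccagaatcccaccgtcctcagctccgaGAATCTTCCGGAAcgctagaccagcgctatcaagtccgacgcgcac
Hsp90b1 has 1 match on each strand. A match is a description of these letters and not a site of binding.

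Among 7 lists of neighbouring pathways, the one for collagen folding had all its listed genes higher. Their transcripts have 54.5% to 60.9% GC, and in their GC bins 88.8% to 98.1% of all listed genes were higher. The list of collagen folding and crosslinking in the ER, which holds Fkbp10, had 5 of 22 genes in the table. All 5 were higher without overlap, where 49.5% of the 4845 genes were, and 4 rose, where 22.0% did: P4ha3, P3h3, Fkbp10 and Serpinh1. Their median log2 fold change in the authors' deposited table was 0.77. P4ha3, a subunit of collagen prolyl 4-hydroxylase, read 4.9 and 4.56 in SmoM2, against 1.68 and 1.44 in WT. Serpinh1, the collagen chaperone HSP47, read 46.03 and 34.8 in SmoM2, against 27.81 and 26.4 in WT. P3h3, a prolyl 3-hydroxylase, read 12.98 and 7.16 in SmoM2, against 4.67 and 4.72 in WT. P3h3 and Serpinh1 were highest in SmoM2 replicate 1: leaving it out took the log2 difference (limma) to 0.52 for P3h3, 0.91 with it, and to 0.35 for Serpinh1, 0.55 with it. Relative to their GC bins the differences were 0.76 for P4ha3, 0.40 for P3h3, 0.12 for Serpinh1 and -0.0040 for Colgalt1, a collagen galactosyltransferase and the listed gene that was not called.

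**Figure D4:**
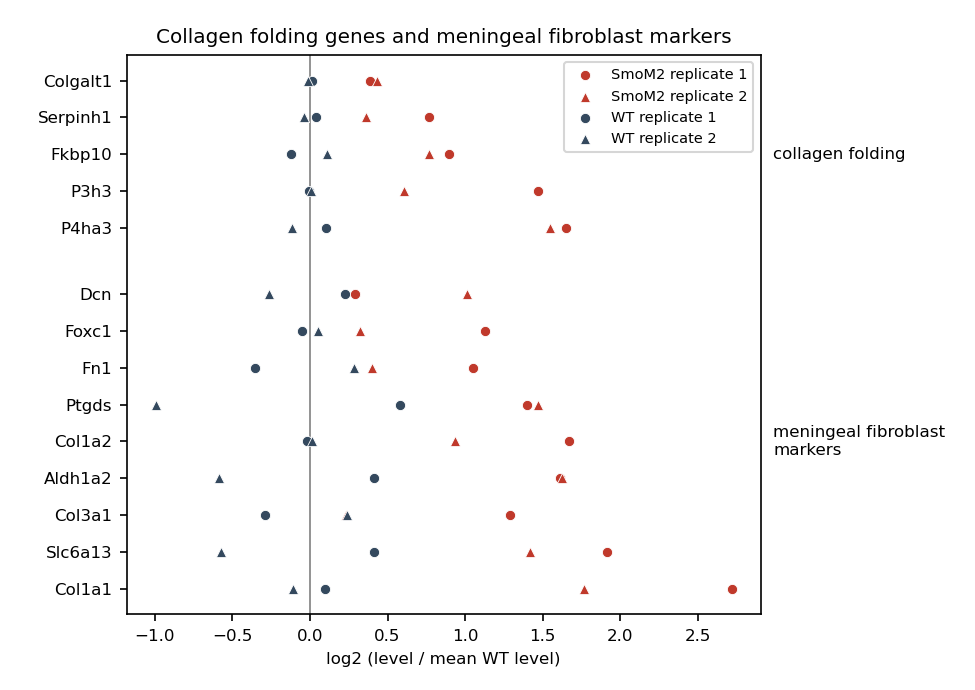
Log2 of each sample's level over the mean WT level (x axis) for 5 collagen folding genes and 9 meningeal fibroblast markers (rows), with SmoM2 in red and WT in dark blue, circles for replicate 1 and triangles for replicate 2. Both SmoM2 samples lie above both WT samples for the 5 folding genes and for 8 of the 9 markers.

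Markers of meningeal fibroblasts and mural cells were higher in SmoM2 by the authors' fold change, as were the collagen folding genes. Those of blood and choroid plexus were lower, and endothelial markers went both ways. Of 10 fibroblast markers, 9 had a row and all 9 rose, where 22.0% of the 4845 genes rose, and 8 did not overlap, against 85.0%. Their levels summed to 1781 and 1840 in SmoM2, against 995 and 375 in WT, mostly Ptgds, and none of these 9 was at 0. Col1a1, a collagen gene that defines these cells, read 14.36 and 7.42 in SmoM2, against 2.34 and 2.03 in WT. Of 7 mural cell markers 5 had a row, all 5 were higher and 3 rose, with summed levels of 136 and 113 in SmoM2, against 72.7 and 55.9 in WT. Myh11 and Pdgfrb overlapped between groups. For each count here, the background is that 22.0% of the 4845 genes rose and 16.9% fell. Of 8 endothelial markers 6 had a row, of which 3 rose and 2 fell. All 6 blood markers with a row, of 7, fell, with summed levels of 65.6 and 120 in SmoM2, against 662 and 450.2 in WT. Of 7 choroid plexus markers 6 had a row and 5 fell, with summed levels of 150.4 and 724 in SmoM2, against 1364 and 1398 in WT. Of 7 ciliated ependymal markers 2 had a row, and these 2 were lower and not called. Slc4a1, of red cells, was listed at 0 in 1 SmoM2 sample. Inside the parenchyma, 4 of 8 oligodendrocyte precursor markers had a row. All 4 were higher without overlap, where 49.5% of the 4845 genes were, and 2 rose, where 22.0% did. Cspg4, Olig2 and C1ql1 lie in GC bins where 97.5% to 98.1% of listed genes were higher, and Ptprz1 in one where 8.1% were. Of 8 microglia markers 6 had a row, of which 2 rose and 1 fell. Of 7 astrocyte markers 4 had a row, of which 2 rose and 1 fell. Of 9 immediate early genes 4 had a row, of which 1 rose and 2 fell. The part of any of these cells in the rise of Fkbp10 was not tested, and in bulk tissue more cells of a type and more RNA per cell cannot be told apart.

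Co-chaperones that load HSP90 had 10 of 22 genes in the table, with 5 in each direction. None of the 10 overlapped between groups, where 85.0% of the 4845 genes did not. Unc45a, a myosin chaperone, and Sgta, a partner of Bag6, rose, and Fnip1 and Cdc37l1 fell. Unc45a had a mean of 32.7 ± 2.09 in SmoM2 samples, against 21.6 ± 1.94 in WT samples (SD, n = 2 each). Fnip1, an HSP90 co-chaperone that binds folliculin, had a mean of 6.43 ± 0.0141 in SmoM2 samples, against 9.185 ± 0.163 in WT samples. Sgta had a mean of 199 ± 11.7 in SmoM2 samples, against 149 ± 10.5 in WT samples. Transcript GC is 58.5% for Unc45a, 59.2% for Sgta, 38.9% for Fnip1 and 41.5% for Cdc37l1. Relative to their GC bins the log2 differences (limma) were 0.13, -0.03, -0.15 and -0.06, in that order, and Sgta changed sign.

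Sensors and factors of the unfolded protein response had 4 of 19 genes in the table. The paralogous ER-bound transcription factors Atf6 and Atf6b moved apart. Atf6 fell and read 8.83 and 10.03 in SmoM2, against 11.24 and 13.6 in WT. Atf6b rose and read 67.39 and 75 in SmoM2, against 52.03 and 55.49 in WT. Their transcripts have 46.0% and 60.3% GC, and relative to their GC bins the log2 differences were -0.15 and -0.11. Atf6 had a log2 difference of -0.36 (limma), and of -0.23 once WT replicate 2 was left out. The stress list around Hsf1 had 5 of 12 genes in the table and none was called. Hsf1, the main heat shock transcription factor, read 20.58 and 22.15 in SmoM2, against 13.79 and 16.16 in WT (adjusted p = 0.237, authors' deposited table).

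The median log2 fold change in the authors' deposited table was 0.38 for the sensor list and 0.21 for the stress list, against 0.23 over the 4845 genes. In these lists 3 of 4 and 3 of 5 genes were higher, and such medians mostly follow that share. Relative to their GC bins, the log2 differences (limma) of the sensor list ran from -0.15 for Atf6 to 0.05 for Chac1. Those of the stress list, where a gene had a bin, ran from -0.12 for Ubb to 0.38 for Chordc1.

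Other ER folding and oxidation genes had 9 of 41 in the table, with 3 higher and 6 lower, Hsp90b1 among them. Ero1a, the oxidase that recharges disulfide isomerases, and Tmx3, a membrane-bound isomerase, fell, and Creld2 was higher and not called. Ero1a had a mean of 12.6 ± 0.587 in SmoM2 samples, against 16.3 ± 3.10 in WT samples (SD, n = 2 each), and its log2 difference of -0.33 became -0.15 without WT replicate 2 and -0.52 without WT replicate 1. That of Tmx3, -0.29, became -0.12 without SmoM2 replicate 2, -0.46 without SmoM2 replicate 1 and -0.19 without WT replicate 2. Relative to their GC bins the differences were -0.08 for Ero1a and 0.02 for Tmx3, which changed sign. ER-associated degradation had 3 of 22 genes, of which Erlec1, an ER lectin, fell, at 30.08 and 34.11 in SmoM2, against 43.07 and 42.25 in WT. Relative to its GC bin the log2 difference of Erlec1 was -0.10. Mitochondrial import and folding had 8 of 20 genes, with no overlap for any of the 8, where 85.0% of the 4845 genes had none. Tomm40, the outer membrane import pore, rose, and Yme1l1, an inner membrane protease, fell. Relative to their GC bins the log2 differences (limma) were -0.08 for Tomm40, a change of sign, and -0.04 for Yme1l1. Without SmoM2 replicate 2 the log2 difference of Yme1l1 became -0.21, against -0.34 with it. The median log2 fold changes of these 3 lists in the authors' deposited table were -0.22, -0.24 and -0.22, and that of the HSP90 co-chaperones was 0.04. In each of the 7 lists, 100% of the genes with a GC bin went with the majority of that bin.

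**Figure D5:**
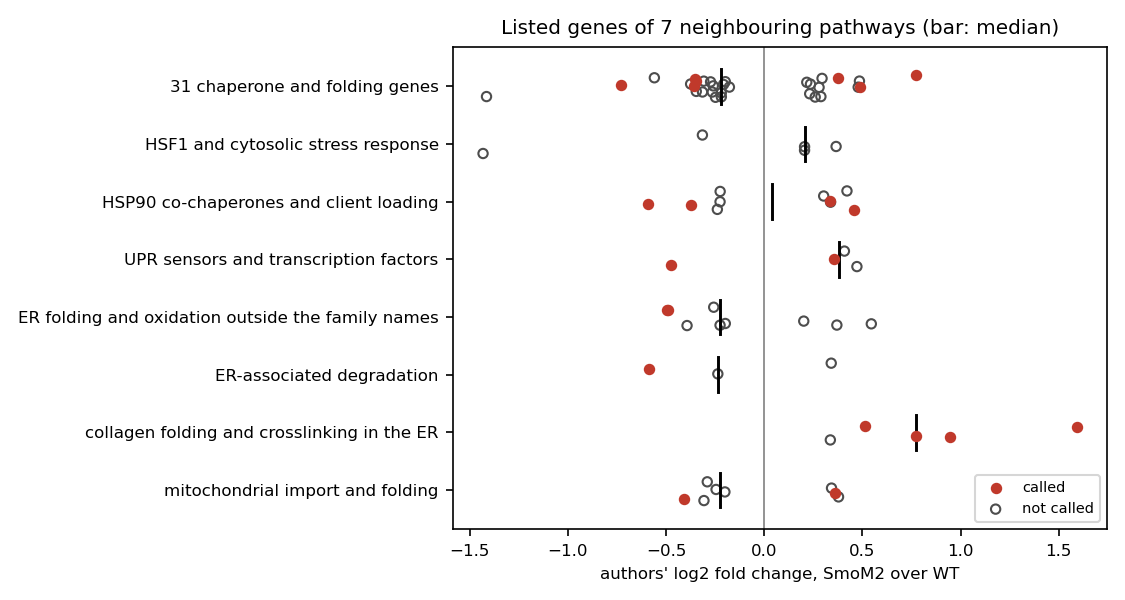
The authors' log2 fold change of SmoM2 over WT (x axis) for the 31 members and the listed genes of 7 neighbouring lists (rows); filled red points are called, open points are not, and black bars are medians. The collagen folding list is the row with all points to the right of 0, and the other rows hold points on both sides. The collagen folding genes lie in GC bins where 88.8% to 98.1% of listed genes were higher.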

How the data were processed

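RNA-seq libraries of 2 SmoM2 and 2 WT samples were made with a TruSeq kit from 1 ug of total RNA, per the labels' protocols. The submitters' processing notes name RSEM, DESeq2 and GRCm38.p6, with no roles or versions. Each sample has a deposited level, a signal that appears from its values to be scaled for library size and gene length. The authors also deposited a fold (the ratio of SmoM2 to WT) and its log2. The deposited p-value and adjusted p-value follow Benjamini and Hochberg over 57010 tests, without the last step. No per-sample column was left unused. Columns were tied to samples by the pairing in the series text.

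limma 3.58.1 in R 4.3.3 was run with a mean-variance trend on log2(level + 1) for the 4845 listed genes whose mean level reached 1, adjusting over 57010 tests. These differences understate the change of low genes. The fit and its variance model saw only genes already listed by p in these samples, so the SE and p-values may be too small. The limma steps were tested on simulated data. GC and coordinates come from GENCODE M21, in which all 31 members were found.

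The members and lists were chosen with earlier results of these data known. Named genes are, per family, up to 3 called genes without overlap and the one of highest level. Other members, the tubulins and the translocation genes were chosen after their values were seen. Alternatives were other pseudocounts, scalings, filters and variance models, the replicate block, leaving out each library and, chosen after seeing the data, subtracting the median of the GC bin.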

Additional observations from a re-analysis of the deposited data

How the results depend on the processing

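Called members numbered 3 higher and 4 lower with the Benjamini-Hochberg step completed, with the minimum mean level raised to 5, and with overlapping genes left out. They numbered 1 and 1 at an adjusted p of at most 0.01, and 0 and 0 with limma, where 16 members, 51.6%, had an unadjusted p below 0.05, against 55.5% of all genes tested. The median log2 difference of the members, -0.13, was -0.26 after quantile normalization and -0.23 with equal medians, and it ran from -0.24 to 0.014 with a library left out. Pseudocounts, filters and the variance model left it between -0.131 and -0.126. Lower J-domain genes numbered 9 to 10 with a library left out. Relative to the GC bin, the median was -0.04 and 15 of the 31 members changed sign. Among the called ones Bag6 turned to -0.14 and Dnajb14 to 0.0095, and the cause of these moves was not tested. With the replicate block the median was -0.13, and 20 of 4845 genes passed in limma, against 6 without it; no member passed, and 15 had an unadjusted p below 0.05. Replicate numbers do not show a pairing: over 4845 genes the replicate differences of the groups correlated at -0.093. Depth is unknown, so counting error could not be judged.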

Other observations

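Genes that bring proteins into the ER, upstream of its chaperones, were looked up after the values were seen. Of 21 annotated translocon, signal recognition and signal peptidase genes, 8 had a row, all 8 were lower by the authors' fold change, and 5 fell: Ssr3, Sec62, Srp54a, Sec63 and Srp54c. They lie in the 4 GC bins lowest in GC, where 81.5% to 97.1% of all listed genes were lower. Ssr3, a subunit of the translocon-associated complex, read 74.98 and 75.56 in SmoM2, against 99.36 and 95.95 in WT. Sec62, a translocon partner, read 56.15 and 53.17 in SmoM2, against 71.28 and 76.53 in WT. Srp54a and Srp54c share much of their sequence, which makes each value uncertain, and Srp54a read 49.19 and 70.73 in SmoM2, against 80.44 and 77.87 in WT. Its limma log2 difference of -0.42 became -0.16 without SmoM2 replicate 1 and -0.68 without SmoM2 replicate 2. Without WT replicate 2 the difference became -0.25 for Sec63, against -0.40 with it, and -0.14 for Srp54c, against -0.25 with it. The groups of Spcs2 overlapped, and its limma log2 difference was 0.035. The transcripts of the 8 genes have 40.2% to 47.3% GC, and relative to their GC bins 5 were lower, from -0.18 for Sec62 to -0.02 for Srp54c, and 3 were higher: Spcs2 at 0.24, Spcs3 at 0.09 and Srp9 at 0.03. The part of base composition was not tested.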
